A study of Homo sapiens with 13 samples.

Results

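The 9 genes of the NRF2 pathway described here were followed through CUT&RUN peak lists from PANC1, a long-established cell line grown from a human carcinoma of the pancreatic duct. They were chosen by name and read over the RefSeq GRCh38 gene span plus 50 kb to both sides. The 9 genes are NFE2L2, KEAP1, NQO1, HMOX1, GCLM, GCLC, TXNRD1, SLC7A11 and SRXN1, out of 19974 protein-coding genes on chromosomes 1 to 22 and X, and each lies on a chromosome of its own. CUT&RUN uses an antibody to bring a nuclease to a chromatin protein, and the DNA released around it is sequenced. All cells came from a stable PANC1 line that expresses BRG1, labelled BRG oe, and were mildly crosslinked. The antibodies were against BRG1, NRF2, SMARCC1, H3K4me1, H3K4me3 and H3K27ac, with 2 replicates each, and PANC1 cells without added BRG1 were not analysed here. An IgG library of the same line was not used here. The labels do not say whether replicates were separate cultures, so SDs over 2 libraries may be technical.

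NRF2, encoded by NFE2L2, is a transcription factor held low by KEAP1, which hands it to a CUL3 ubiquitin ligase. When electrophiles or oxidants modify KEAP1, NRF2 accumulates, pairs with small MAF proteins and binds antioxidant response elements beside genes for glutathione synthesis, thioredoxin recycling and quinone detoxification. BRG1, the ATPase encoded by SMARCA4, and SMARCC1 are subunits of the BAF and PBAF chromatin remodellers. H3K4me3 marks active or poised promoters, H3K27ac marks active promoters and enhancers, and H3K4me1 is most abundant at enhancers.

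The promoter sequences are shown first because some of them carry the core of the element that NRF2 is known to read. RefSeq promoter sequences of GRCh38.p14, which run from 250 bases before to 50 bases after a start, matched 7 of the 9 genes with 10 starts in all; HMOX1 and SLC7A11 were not matched. The core of the antioxidant response element was searched as TGACNNNGC on both strands. It was in 4 of the 10 promoters, those of GCLM, the inner start of KEAP1 and both starts of TXNRD1, and in 13.3% of all 35116 promoters of this length. An element farther from a start lay outside this search, so a promoter without a match may still have one farther away. The AP-1 motif TGANTCA, also read on both strands, was in 0 of the 10 and in 7.71% of all. The first lines below give the 250 bases before the GCLM start (chr1:93909431-93909680, minus strand) and before the inner TXNRD1 start (chr12:104286782-104287031, plus strand), with the element core in capitals. The next lines give short stretches of KEAP1 (chr19:10502784-10502812 and chr19:10502807-10502835, minus strand) and of the outer TXNRD1 start (chr12:104215670-104215698 and chr12:104215761-104215789, plus strand), again with the core in capitals.
GCLM: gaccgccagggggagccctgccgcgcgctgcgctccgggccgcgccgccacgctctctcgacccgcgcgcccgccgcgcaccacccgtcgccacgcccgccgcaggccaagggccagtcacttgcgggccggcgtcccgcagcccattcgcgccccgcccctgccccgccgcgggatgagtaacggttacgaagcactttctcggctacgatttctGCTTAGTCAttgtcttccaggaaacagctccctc
TXNRD1 inner start: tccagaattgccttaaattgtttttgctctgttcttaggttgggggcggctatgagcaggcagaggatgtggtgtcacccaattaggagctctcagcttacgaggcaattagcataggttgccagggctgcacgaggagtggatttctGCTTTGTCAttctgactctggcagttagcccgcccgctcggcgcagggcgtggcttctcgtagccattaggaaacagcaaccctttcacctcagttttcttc
KEAP1 inner start, nearer match: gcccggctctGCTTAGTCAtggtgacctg
KEAP1 inner start, farther match: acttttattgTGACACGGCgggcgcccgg
TXNRD1 outer start, farther match: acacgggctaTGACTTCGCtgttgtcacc
TXNRD1 outer start, nearer match: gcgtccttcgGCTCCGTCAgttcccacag
GCLM and KEAP1 hold the same 9 letters, GCTTAGTCA, which with their other strand occur in 36 of the 35116 promoters, or 0.103%. These letters were counted after they were seen in both genes, so that share does not measure how unusual the match is. For the core as it was searched the share is 13.3%. The GCLM match begins 34 bases before the start, the inner TXNRD1 match 102 bases before, and the KEAP1 matches 31 and 54 bases before. None of these 6 matches lay in a peak of NRF2, BRG1 or SMARCC1 in any library. The GCLM match lay in an H3K4me3 peak of both libraries and so did the inner TXNRD1 match, both KEAP1 matches lay in the peak of replicate 2 only, and the outer TXNRD1 matches lay in no peak of any target. A match is a description of letters and not a binding site.

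As to the libraries as a whole, H3K4me3, H3K27ac and H3K4me1 gave 17752 to 37283 peaks each, and the factors gave 3213 and 6610 (BRG1), 1538 and 919 (NRF2) and 600 and 572 (SMARCC1). The lists hold no read counts, and with depth unknown the absence of a peak may reflect few reads. A site or region is called reproducible here where peaks of both replicates overlap by at least 1 bp. Fold enrichment is the authors' value for each peak on a linear scale, and it was compared between genes only within 1 target. Significance in each list is the authors' −log10 q, the adjusted value, where 1.3 corresponds to a q of about 5 in 100. Reproducible H3K4me3 and H3K27ac stood together at the start of the pancreatic duct markers KRT19, SOX9 and KRT18 but not of KRT7 and KRT8, and at 0 of 4 acinar, 0 of 3 islet and 0 of 2 leukocyte markers. Both stood together at a start in 43.9% of all coding genes, and these few markers were not tested. Peak lists cannot show how much BRG1 the cells made.

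**Figure D1:**
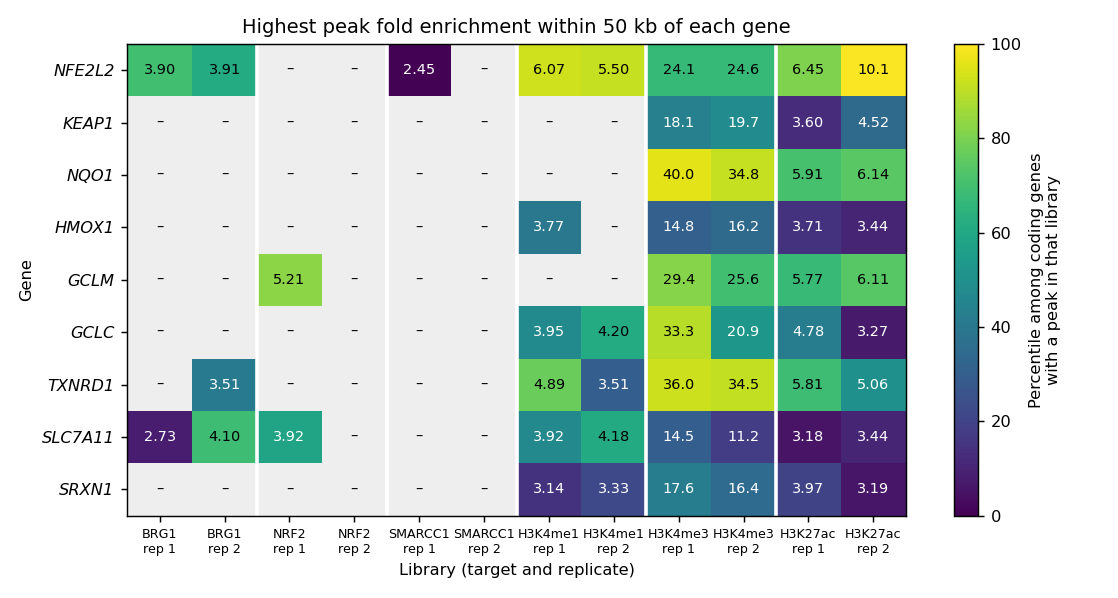
Highest fold enrichment (numbers in the cells, linear scale) of any peak within 50 kb of each of the 9 genes, by library; colour gives the percentile among coding genes with a peak in the same library, and a grey cell with a dash has no peak. H3K4me3 and H3K27ac columns are filled for every gene, and 4 genes have a cell filled under BRG1, NRF2 or SMARCC1.

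NRF2 itself had no reproducible site within 50 kb of any of the 9 genes. Across all coding genes 1.95% had such a site, so a count of 0 among 9 genes lies near the background. NRF2 replicate 2 held 0 peaks in the 9 windows and NRF2 replicate 1 held 3, in the windows of 2 genes, GCLM and SLC7A11; a peak of either library was present for 10.4% of all coding genes. HMOX1 (heme oxygenase), NQO1 (a quinone reductase), TXNRD1 (cytosolic thioredoxin reductase), SRXN1 (sulfiredoxin, which repairs oxidised peroxiredoxins), GCLC (the catalytic subunit of glutamate-cysteine ligase), KEAP1 and NFE2L2 had none in either library. The nearest reproducible NRF2 site was 1799 kb from HMOX1, the closest of the 9, and 40676 kb from SRXN1, the farthest. For GCLC the nearest NRF2 peak of replicate 1, at 66.4 kb, lay just outside the window, and that of replicate 2 at 2398 kb.

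The NRF2 peaks in these windows were weak or away from the named gene. The SLC7A11 peak (chr4:138235934-138236215) had a fold enrichment of 3.92 and a −log10 q of 0.107 in replicate 1, with no peak in replicate 2. SLC7A11 encodes the cystine importer that supplies cysteine for glutathione. The peak lies inside the gene, 6134 bp from the end that carries H3K4me3. The stronger of the 2 GCLM peaks (chr1:93847227-93847487) had a fold enrichment of 5.21 and a −log10 q of 3.68 in replicate 1. GCLM encodes the modifier subunit of glutamate-cysteine ligase, yet this peak lies 37712 bp outside the gene, in H3K4me3 whose nearest gene start is that of BCAR3, and 86 bp from the tRNA gene TRR-TCT1-1. The other GCLM peak, 6009 bp outside the gene, had a fold enrichment of 3.03 and a −log10 q of 0, and its nearest gene start is that of DNTTIP2. The stronger GCLM peak was the only factor peak of the 12 in these windows with a −log10 q of at least 1.3.

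BRG1 was present at the start of NFE2L2 in both libraries. The peak of replicate 1 (chr2:177264891-177265128) had a fold enrichment of 3.90, and that of replicate 2 (chr2:177264860-177265428) had 3.91, a mean of 3.90 ± 0.00916 (SD, n = 2). Both lie just upstream of the outer start, 164 and 133 bp from it, within reproducible H3K4me3 and H3K27ac. Their −log10 q was 0.194 and 0.550, so neither reached 1.3 by itself. Among coding genes 0.586% had a reproducible BRG1 site within 1000 bp of a start, and of the 9 only NFE2L2 did. A BRG1 peak of either library stood there in 3.7% of coding genes, and again NFE2L2 was the only member. Neither NRF2 nor SMARCC1 had a reproducible site at the start of any of the 9, against 0.185% and 0.285% of coding genes, and an NRF2 peak of either library stood at 0 of the 9 starts against 0.976%. The 250 bases before that start (chr2:177264728-177264977, minus strand) are shown because the BRG1 peaks of both libraries reach into them, over the 87 bases in capitals.
NFE2L2: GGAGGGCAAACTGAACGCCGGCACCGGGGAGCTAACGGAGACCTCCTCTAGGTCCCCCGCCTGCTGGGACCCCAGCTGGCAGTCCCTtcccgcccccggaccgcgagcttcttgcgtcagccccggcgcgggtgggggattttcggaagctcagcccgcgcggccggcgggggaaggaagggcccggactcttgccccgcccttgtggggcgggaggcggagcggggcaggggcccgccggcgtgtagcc

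The second reproducible BRG1 site lay inside SLC7A11, where the NRF2 peak also fell. There BRG1 had a fold enrichment of 2.73 in replicate 1 and 4.09 in replicate 2, or 3.41 ± 0.966 (SD, n = 2), over chr4:138235685-138236140, with −log10 q of 0 and 1.04. The NRF2 peak of replicate 1 overlapped the BRG1 peaks of both libraries, and no peak of a mark overlapped them. A peak of NRF2 that met a BRG1 peak, either library counted, was found in the window of 4.48% of coding genes and of 1 of the 9. A further BRG1 peak in SLC7A11, in replicate 2 only, had a fold enrichment of 4.10 and met H3K4me1 in both libraries.

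With NFE2L2 and SLC7A11, 2 of the 9 genes had a reproducible BRG1 site, against 9.32% of all coding genes. TXNRD1 had 3 BRG1 peaks in replicate 2 and 0 in replicate 1. Their fold enrichments were 3.23, 3.51 and 2.06, and the first lay in H3K27ac of both libraries. BRG1 replicate 2 has the longer list of the pair. In all, 29.2% of coding genes had a BRG1 peak of either library and 3 of the 9 did. The other 6 genes had no BRG1 peak, their nearest reproducible sites lying from 183 kb (GCLM) to 1266 kb (HMOX1) away. SMARCC1 was seen once, in replicate 1, inside NFE2L2, with a fold enrichment of 2.45 and a −log10 q of 0. A SMARCC1 peak of either library lay in the window of 8.62% of coding genes and of 1 of the 9. No reproducible SMARCC1 site lay in any of the 9 windows, against 1.6% of all coding genes, and the nearest was 188 kb from GCLC. KEAP1, NQO1, HMOX1, GCLC and SRXN1 thus had no peak of any of the 3 factors. The share of all coding genes without a peak of any factor was not counted. Taken singly, 29.2% (BRG1), 10.4% (NRF2) and 8.62% (SMARCC1) of coding genes had a peak of either library, so such an absence is common. No test was made of these counts, since the 9 genes were picked by name with results of these data known.

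All 9 genes carried H3K4me3 at a start in both libraries, and 8 of them carried reproducible H3K27ac there. H3K4me3 stood within 1000 bp of a start in 59.1% of coding genes, H3K27ac in 44.7% and both in 43.9%; for HMOX1 and SLC7A11 either end of the gene span served as the start. H3K4me1 stood at the start of 0 of the 9 genes, against 5.52% of all. The order of H3K4me3 fold enrichment put TXNRD1, GCLC and GCLM first and KEAP1 last.

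TXNRD1 had the highest H3K4me3 of the 9, with fold enrichments of 36.0 and 34.5 in replicates 1 and 2, or 35.2 ± 1.05 (SD, n = 2), at the 96.1 and 95.2 percentiles of coding genes with a peak at a start. All of it stood at the inner start, and the outer start held no peak of any mark within 1000 bp. GCLC followed with 33.3 and 20.9, or 27.1 ± 8.83 (SD, n = 2), the widest spread between replicates among the 9. GCLM, whose protein pairs with that of GCLC, had 24.4 and 20.1, or 22.2 ± 3.03 (SD, n = 2). NFE2L2 had 18.9 and 20.4, or 19.6 ± 1.05 (SD, n = 2). TXNRD1 lay above GCLC, and GCLC above GCLM, in both libraries, although the ranges of GCLC and GCLM overlapped. GCLM lay above NFE2L2 in replicate 1 and below it in replicate 2.

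Below them, SRXN1 had H3K4me3 fold enrichments of 17.6 and 16.4, or 17.0 ± 0.862 (SD, n = 2), and HMOX1 14.8 and 16.2, or 15.5 ± 1.005 (SD, n = 2). The median over coding genes with a peak at a start was 15.3 in replicate 1 and 15.7 in replicate 2, so HMOX1 lay at the middle of the genes. SLC7A11 had 14.5 and 11.2, or 12.9 ± 2.35 (SD, n = 2), and NQO1 13.8 and 11.7, or 12.8 ± 1.47 (SD, n = 2), with overlapping ranges. KEAP1 was lowest, with 11.03 and 10.5, or 10.8 ± 0.370 (SD, n = 2), below NQO1 in both libraries. Of the neighbouring pairs from NFE2L2 down, only SLC7A11 and NQO1 overlapped. Each step compares 2 genes within the same 2 libraries, and 2 such pairs are too few for a test, so none of these steps was tested.

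Width told the genes apart in another order. The reproducible H3K4me3 region at the start of NFE2L2 was 4232 bp wide, at the 97.5 percentile of coding genes with such a region, and that of TXNRD1 3975 bp, at the 96.5 percentile. GCLC had 2908 bp, SLC7A11 2798 bp and HMOX1 2639 bp, GCLM 2082 bp and NQO1 2039 bp, while KEAP1, at 1877 bp, and SRXN1, at 1708 bp, were near the median of 1794 bp. SLC7A11 and NQO1, below the median in fold enrichment in both libraries, were above it in width.

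**Figure D2:**
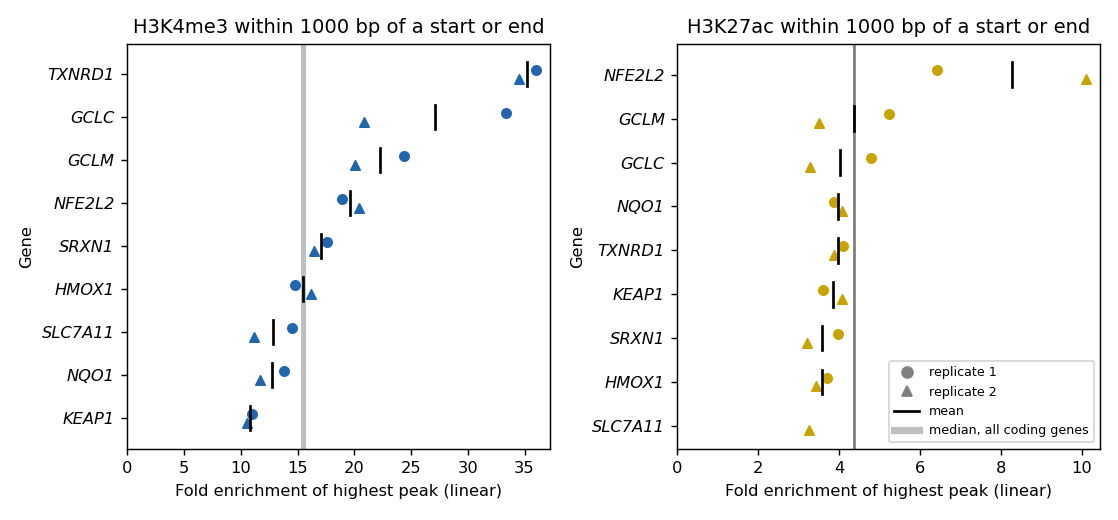
Fold enrichment (linear axis) of the highest H3K4me3 and H3K27ac peak within 1000 bp of a start, or of either gene end for HMOX1 and SLC7A11, for each of the 9 genes; circles and triangles are the 2 replicates, black bars their mean and the grey line or band the medians over all coding genes with a peak there. TXNRD1 leads for H3K4me3 at 36.0 and 34.5, NFE2L2 leads for H3K27ac at 6.41 and 10.1, and SLC7A11 has an H3K27ac value in replicate 2 only.

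For H3K27ac at the start, NFE2L2 stood above the other 8 genes in both libraries. It had fold enrichments of 6.41 and 10.1, or 8.27 ± 2.62 (SD, n = 2), at the 89.4 and 99.6 percentiles of coding genes with a peak at a start. GCLM had 5.24 and 3.50, or 4.37 ± 1.23 (SD, n = 2), and GCLC 4.78 and 3.27, or 4.02 ± 1.07 (SD, n = 2). NQO1, at 3.98 ± 0.141 (SD, n = 2), TXNRD1, at 3.98 ± 0.159 (SD, n = 2), and KEAP1, at 3.83 ± 0.328 (SD, n = 2), were close together. SRXN1 had 3.58 ± 0.550 (SD, n = 2) and HMOX1 3.57 ± 0.197 (SD, n = 2). From GCLM down, each gene's range overlapped that of the next in this order, although GCLM lay above GCLC in both libraries. At KEAP1, TXNRD1 and SRXN1 the highest peaks of the 2 libraries did not overlap, so their means join different places near the start. The medians over coding genes were 4.34 and 4.37, so the 6 genes from GCLC down had means below them.

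SLC7A11 was the only gene of the 9 without a reproducible H3K27ac region anywhere in its window. Replicate 1 had H3K27ac peaks of fold enrichment 3.18 and 2.91 inside the gene, 5536 and 3490 bp from the H3K4me3 end, and replicate 2 had 3.25 at 390 bp from that end and 3.44 at 35386 bp from the other end. None of these 4 peaks met a peak of the other library, and none had a −log10 q of 1.3. At a −log10 q of at least 1.3 reproducible H3K27ac at the start was left for 4 of the 9 genes, TXNRD1, NQO1, KEAP1 and NFE2L2, against 33.2% of all coding genes.

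Inside NFE2L2, acetylated and H3K4me1-bearing regions followed each other, and its H3K4me1 regions outnumbered those of every other member. Its window held 12 reproducible H3K27ac regions, 10 of them inside the gene, and 11 reproducible H3K4me1 regions, all inside. Coding genes had a median of 2 and 1, and 3.55% and 2.93% of them had at least as many. For H3K27ac this was not particular to NFE2L2. TXNRD1 had 11 reproducible H3K27ac regions, 10 of them inside the gene, and 4.52% of coding genes had at least as many. Regions with reproducible H3K27ac and H3K4me1 but no H3K4me3, the usual signature of an active enhancer, numbered 7, all inside NFE2L2. They lay from 8654 to 22951 bp from the nearer start. The strongest by mean was chr2:177244943-177246325, with an H3K27ac fold enrichment of 6.45 and 4.004 in the 2 libraries, or 5.23 ± 1.73 (SD, n = 2). In replicate 2 chr2:177244380-177244813, at 5.18, and chr2:177254919-177255477, at 4.28, stood higher. The highest H3K4me1 fold enrichment in the gene was 6.07 in replicate 1 and 5.50 in replicate 2. None of the 7 met a BRG1 or NRF2 peak of any library, and the SMARCC1 peak of replicate 1 lay in the one nearest the start. At least 1 such region lay in the window of 19.2% of coding genes and of 1 of the 9, and 7 or more in that of 0.801%. Only the region nearest the start had a −log10 q of at least 1.3 for both marks in both libraries. Its values were 1.41 and 1.42 for H3K27ac, and 2.75 and 2.42 for the H3K4me1 over it. Each of the others fell below 1.3 for a mark in at least 1 library. These counts used no −log10 q threshold and were not repeated with one.

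**Figure D3:**
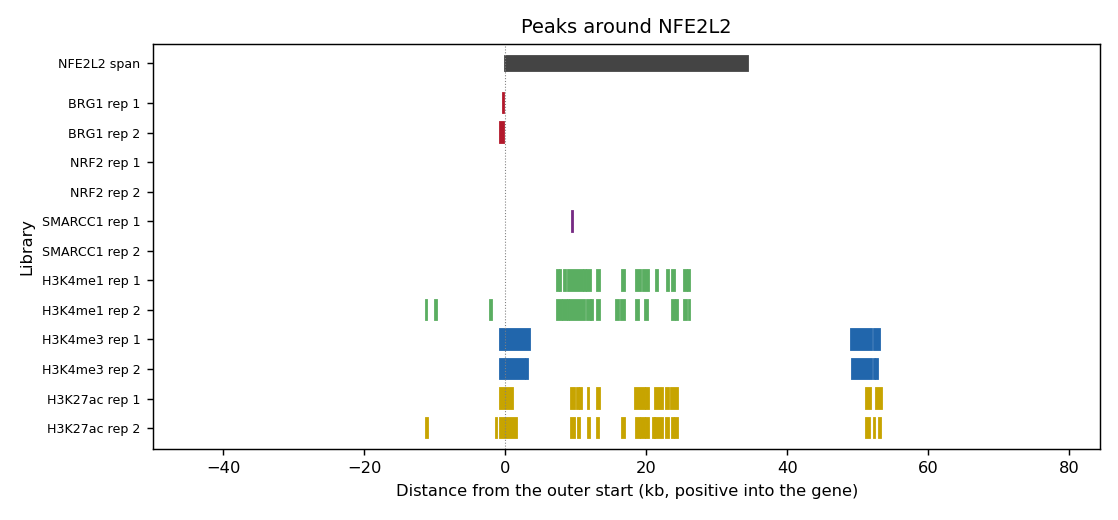
Peaks of the 12 libraries around NFE2L2, as distance in kb from the outer start, positive into the gene; each bar is a peak drawn to scale with a thin outline, and the dark bar is the gene span. BRG1 peaks of both replicates stand beside the start, H3K4me1 and H3K27ac peaks fill the middle of the gene, and no NRF2 peak is present.

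The share of the window covered by peaks allows for the unequal lengths of the genes. For H3K27ac NFE2L2 had 7.16% ± 0.302 (SD, n = 2), NQO1 2.72% ± 0.241 (SD, n = 2) and TXNRD1 2.63% ± 0.0748 (SD, n = 2), against medians over coding genes of 0.807% and 0.844%. SLC7A11 was lowest at 0.267% ± 0.0417 (SD, n = 2). These shares include peaks of neighbouring genes. In the NQO1 window the widest reproducible H3K27ac regions, of 1405 and 1303 bp, stood at the starts of NOB1 and WWP2. Those nearest to the NQO1 start were 322, 300 and 407 bp wide. For H3K4me1 NFE2L2 had 6.31% ± 0.540 (SD, n = 2) and GCLC 1.997% ± 0.379 (SD, n = 2), against medians of 0.277% and 0.228%, while KEAP1, NQO1 and GCLM had no H3K4me1 peak in either library. HMOX1 had 2 H3K4me1 peaks in replicate 1 and 0 in replicate 2. TXNRD1 had 6 and 3 H3K4me1 peaks, of which none met a peak of the other library, although its window held 11 reproducible H3K27ac regions. In all, reproducible H3K4me1 was found for 4 of the 9 genes, NFE2L2, GCLC, SLC7A11 and SRXN1, against 52.6% of coding genes, reproducible H3K4me3 for 9 against 78.2%, and reproducible H3K27ac for 8 against 71.6%. With peaks of either library the counts were 6 against 68.1% for H3K4me1, 9 against 79.5% for H3K4me3 and 9 against 76.4% for H3K27ac. The single reproducible H3K4me1 region of SRXN1 lay at the end of the gene away from its start, with fold enrichments of 3.14 and 3.33.

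**Figure D4:**
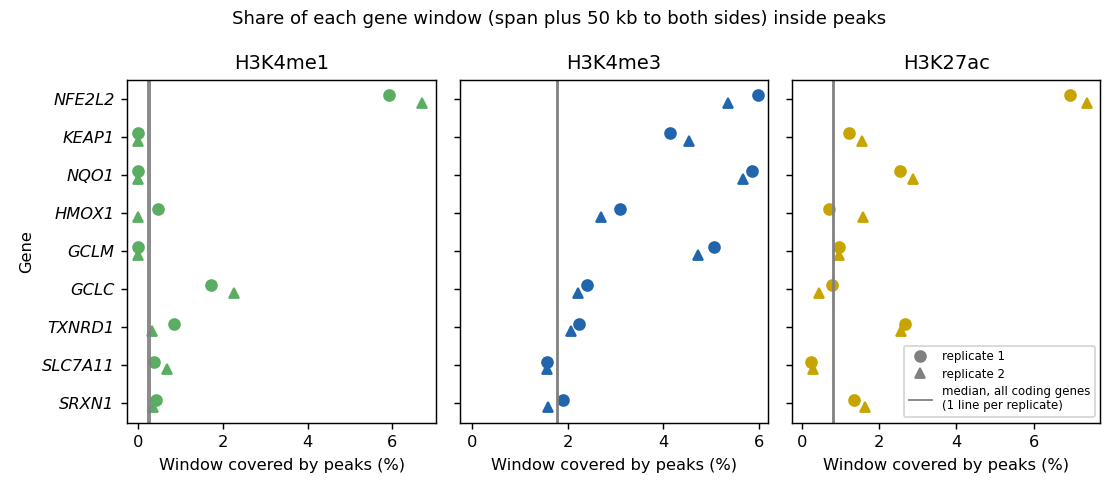
Share of each window (gene span plus 50 kb to both sides) covered by H3K4me1, H3K4me3 and H3K27ac peaks, in percent, for the 9 genes; circles and triangles are the 2 replicates and grey lines the medians over all coding genes, 1 per replicate. NFE2L2 has the highest H3K4me1 and H3K27ac share in both replicates, and SLC7A11 the lowest H3K27ac share.

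**Figure D5:**
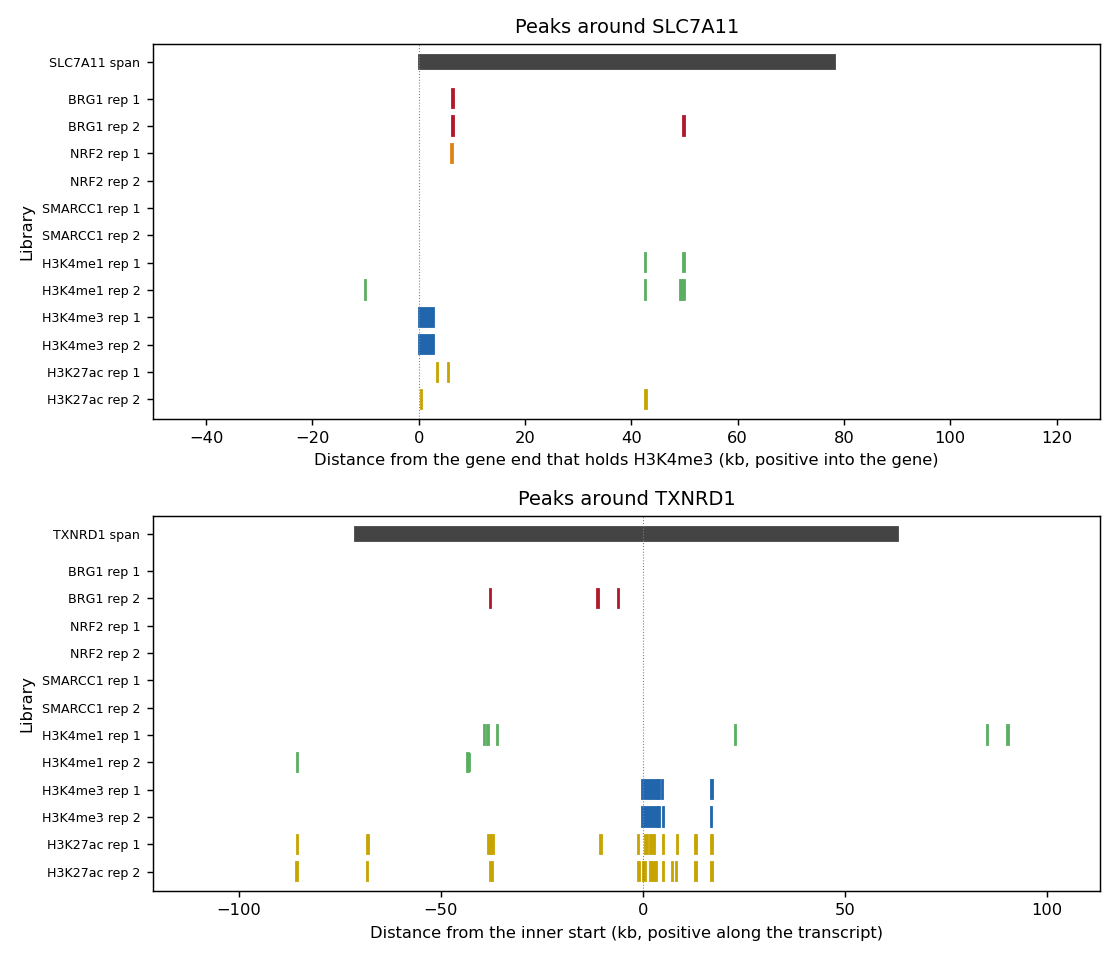
Peaks of the 12 libraries around SLC7A11, as distance in kb from the gene end that holds H3K4me3, and around TXNRD1, as distance from the inner start; each bar is a peak drawn to scale with a thin outline. In SLC7A11 the NRF2 peak of replicate 1 overlaps the BRG1 peaks of both replicates and no peak of a mark, and in TXNRD1 BRG1 peaks appear in replicate 2 only.

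Some of the highest peaks in the windows belonged to neighbouring genes, so the values at the start and those over the window differ. The highest H3K4me3 of the NQO1 window, 40.0 in replicate 1 and 34.8 in replicate 2, stood at the starts of NOB1 and WWP2, where NQO1 itself had 13.8 and 11.7. Likewise the highest H3K4me3 in the NFE2L2 window, 24.1 and 24.6, was at HNRNPA3, that in the KEAP1 window, 18.1 and 19.7, at ATG4D, and that in the GCLM window, 29.4 and 25.6, at DNTTIP2. The GCLC and SLC7A11 windows held no other coding gene.

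The rest of the pathway was read from 3 lists. The regulators and partners of NRF2 comprised 13 genes, among them CUL3, BACH1 (a repressor that competes at the same elements) and the small MAF genes. All 13 carried reproducible H3K4me3 at a start, against 59.1% of coding genes, and 12 carried H3K27ac, against 44.7%. An NRF2 or SMARCC1 peak of either library lay in the window of 0 of the 13, against 10.4% and 8.62%, so these counts of 0 lie near the background. NFE2L3, an NRF2 relative, was the only 1 of the 13 with a reproducible BRG1 site, or 7.69%, against 9.32% of coding genes. The site lay inside the gene and in H3K27ac, with 3.28 ± 0.360 (SD, n = 2) and −log10 q of 0 and 0.373. A BRG1 peak of either library lay in the window of 6 of the 13, or 46.2%, against 29.2%.

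Of 34 other NRF2 target genes 33 were found in the annotation. Reproducible NRF2 sites lay in the windows of 2 of the 33, or 6.06%, against 1.95% of all coding genes, and NRF2 peaks of either library in those of 8, or 24.2%, against 10.4%. Of these 8 genes only GPX2 and ABCC2 had a peak in both libraries, and the others had it in replicate 1 only. Some of the peaks lay inside the gene and others up to 44151 bp outside it. The share of all coding genes was not matched for gene length. ABCC2, which exports glutathione conjugates from cells, had a reproducible NRF2 site 2441 bp outside the gene (chr10:99779742-99780199). NRF2 fold enrichment there was 3.93 and 3.41 in the 2 libraries, or 3.67 ± 0.374 (SD, n = 2), with −log10 q of 0.678 and 0. It met reproducible BRG1 sites of 3.75 ± 0.238 (SD, n = 2) and 3.43 ± 0.150 (SD, n = 2) and lay in H3K27ac. The −log10 q of these BRG1 sites was 0.438 and 0.373 for the first and 0 in both libraries for the second. The NRF2 site in the window of GPX2, a glutathione peroxidase, had 4.89 ± 0.131 (SD, n = 2) and lay 44004 bp away, nearest to the start of FNTB, in H3K4me3 and H3K27ac. Its −log10 q was 0.931 and 0.595 in the 2 libraries.

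ABCC3, another conjugate exporter, had a reproducible BRG1 site inside the gene with 3.32 ± 0.0676 (SD, n = 2). ABCC1, of the same family, had 2 reproducible SMARCC1 sites, of 4.28 ± 0.153 (SD, n = 2) and 3.26 ± 0.602 (SD, n = 2), both with H3K4me1 and H3K27ac. Their −log10 q was 0 in both libraries, and 0 SMARCC1 peaks in either list reached 1.3. In all 2 of the 33, or 6.06%, had a reproducible BRG1 site, against 9.32% of all coding genes, and 1, or 3.03%, a SMARCC1 site, against 1.6%. With peaks of either library the BRG1 count was 11, or 33.3%, against 29.2%, and the SMARCC1 count 3, or 9.09%, against 8.62%. H3K4me3 stood at a start of 24 of the 33, against 59.1% of coding genes, and H3K27ac at a start of 20, against 44.7%. Among 20 other antioxidant enzymes, such as superoxide dismutases, catalase and peroxiredoxins, 0 had a reproducible NRF2 site, against 1.95% of coding genes, and 2 of the 20 had an NRF2 peak of either library, near the 10.4% of all coding genes. PRDX6, a peroxiredoxin, was the only 1 of the 20 with a reproducible BRG1 site, or 5%, against 9.32% of coding genes. The site lay 3388 bp outside the gene, in H3K27ac, with 3.87 ± 0.228 (SD, n = 2) and −log10 q of 0.249 and 0.373. A BRG1 peak of either library lay in the window of 4 of the 20, or 20%, against 29.2%. Of these 20 genes 19 had H3K4me3 and 16 H3K27ac at a start, against the same 59.1% and 44.7%. These lists were described by their counts and nothing was tested.

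Likeness to other genes was measured over the 12 libraries as the mean absolute difference in log2 of the highest fold enrichment in the window, with 1 where there was no peak. For NFE2L2 the closest coding genes were C1orf105 and PIGC, at 0.14, against a median of 0.93 over all coding genes. The closest to SLC7A11 was KLF5 at 0.15, against a median of 0.89, then KIFAP3 at 0.20. For TXNRD1 they were CHMP1B and SF3B6 at 0.04 and 0.06, and for GCLM MYL6 and SMARCC2, at 0.07 each. KEAP1 came closest to CYB561D1 and AMIGO1 at 0.02, NQO1 to ZNF432 and ZNF841 at 0.02, HMOX1 to AQP10 and ATP8B2 at 0.04, GCLC to TUB and ACAD10 at 0.06, and SRXN1 to ALKBH1 and EED at 0.04. For the members other than NFE2L2 and SLC7A11 the medians over all coding genes ran from 0.51 (SRXN1) to 0.80 (GCLM). Among the 9 genes themselves GCLC and SRXN1 were the most alike, at 0.19. Genes with the same value can share the peaks of a common window.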

How the data were processed

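The deposited files are peak lists, 1 per library, for 12 libraries of the PANC1 line. MACS2 2.2.7.1, Picard 2.23.9, SAMtools 1.9, Bowtie2 2.4.1 and the GRCh38 build are listed without roles or settings, per the submitters' processing notes; whether peaks were called against IgG is not given in the sources used here. Each peak has the authors' fold enrichment, used unscaled, the authors' −log10 p and −log10 q, used as thresholds, and a deposited score that was not used. Read depth is unknown.

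Peaks of both replicates were merged from 1 bp of overlap, and merged sites with a peak of each were called reproducible. Gene spans, starts and promoter sequences came from RefSeq GRCh38.p14; 15812 of 19974 coding genes had a listed start and the rest used either gene end, within 1000 bp. Counts over the 9 genes stand beside the share of all coding genes measured alike, with no test. Means and SDs are over 2 libraries. The code that merges peaks and counts them per window was checked on simulated peaks with known positions. The genes, lists and motifs were chosen with earlier results of these data known; the text names all 9 genes, every list gene with a reproducible NRF2 site, up to 4 per list with the highest reproducible BRG1 or SMARCC1 fold, and per member the 2 most alike genes on other chromosomes. Python 3.11.15, NumPy 2.4.6, pandas 2.3.3 and matplotlib 3.10.9 were used. A further duct marker is not reported here.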

Additional observations from a re-analysis of the deposited data

How the results depend on the processing

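The settings tried were stricter thresholds, a larger required overlap, peaks of either replicate, other distances and each library left out, in which case every peak of the other replicate counted. Each count is followed by the share of all coding genes under the same setting. Reproducible BRG1 was left for 0 of the 9 genes at −log10 p of at least 5 (2%) and for 0 at −log10 q of at least 1.3 (0.946%), and was found for 2 to 3 with a library left out (14.1% and 26.3%). With peaks of either replicate the counts were 2 for NRF2 (10.4%) and 1 for SMARCC1 (8.62%), and with a library left out they ran from 0 (4.69%) to 2 (8.05%) for NRF2, the upper value without replicate 2, and from 0 (5.16%) to 1 (5.49%) for SMARCC1, the upper value without replicate 2. Reproducible H3K4me1 in the window was left for 1 gene, NFE2L2, at either threshold (14.8% for p and 17.7% for q), and was found for 7 with a window of 100 kb (66%). Reproducible H3K27ac in the window was left for 4 genes at −log10 p of at least 5 (49.2%) and 5 at −log10 q of at least 1.3 (60.9%), and at the start for 2 (24.4%) and 4 (33.2%). With a library left out, H3K4me1 in the window was found for 5 (60.4%) to 6 (63.4%) genes, and H3K27ac for 9 in the window (74.3% and 74.8%) and 8 (47%) to 9 (48.3%) at the start. In total 56 values of these counts, some of them given above, stayed within 1.5 times the reported count, H3K4me3 at 9 throughout, and 13 did not. Highest fold enrichments kept within 1 SD for 23 of 23 values from reproducible sites only and for 21 of 25 with a window of 10 kb, where the exceptions were H3K4me3 at NQO1 (12.8), KEAP1 (10.8) and NFE2L2 (19.6) and H3K27ac at NQO1 (4.30). No paired analysis was possible because the results are counts and levels of peaks per target, with no test between groups.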

Other observations

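The factor peaks in the windows of the 9 genes numbered 12, of which 8 lay inside a gene span: 8 were BRG1 peaks, 6 of them in replicate 2, 3 were NRF2 peaks and 1 was a SMARCC1 peak. Agreement between replicates within these windows was highest for H3K4me3, where 29 of 31 peaks of replicate 1 and 28 of 29 of replicate 2 met a peak of the other library. For H3K27ac it was 42 of 50 and 42 of 59, and for H3K4me1 20 of 32 and 19 of 34.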
